A study of Mus musculus with 220 samples.

Results

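Cxcl1 and Pf4 are CXC chemokine genes whose transcripts were read, as 2 of the 24049 genes of the deposited table, in single endothelial cells sorted from mouse lymph nodes. They were chosen by their measured values, because both were higher in homeostatic than in treated high endothelial cells, so their levels in these groups are given as a description and with no test. High endothelial cells (HEC) line the venules through which lymphocytes enter the lymph node, and blood endothelial cells (BEC) line its other blood vessels. All cells came from C57BL/6 mice and fell into 4 groups. The inflamed HEC (64 cells) came from mice whose skin had been treated with 4% oxazolone, a contact sensitizer, and were harvested on day 3. The dedifferentiated HEC (44 cells) came from mice given 1 intraperitoneal injection of LTBR-Ig, a decoy that captures the ligands of the lymphotoxin beta receptor, and were harvested on day 7. The homeostatic HEC (79 cells) and the BEC (32 cells) came from untreated mice. No animal, chip or capture day is named, and the treated groups have no vehicle group, so each group is 1 sample and treatment cannot be told apart from mouse, chip or day. Of 220 deposited cells 219 were analysed, since the inflamed cells 43 and 60 had nearly the same values (r 0.988 over genes, against 0.701 for the next pair) and were counted as 1 cell.

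Values are FPKM, the fragments of a gene scaled to its transcript length and to the mapped fragments of the cell. The number of genes with an FPKM of at least 1 had medians of 3961 in inflamed HEC, 3075 in dedifferentiated HEC, 3842 in homeostatic HEC and 2870.5 in BEC. The approximated depth had medians of about 2150000, 2120000, 1810000 and 2030000 fragments in the same order, so that the homeostatic HEC were the shallowest group. At this depth 1 fragment was worth about 0.578 FPKM of Cxcl1 and 0.937 FPKM of Pf4. All 219 cells held at least 3 of 9 blood endothelial markers at an FPKM of 1. At the same limit, the median number of 8 high endothelial markers was 7 in inflamed, 6 in dedifferentiated and 7 in homeostatic HEC, against 4 in BEC. Cells that held 3 or more markers of another cell type at an FPKM of 10 numbered 3, 1, 8 and 1 in the 4 groups.

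Cxcl1 encodes a chemokine that draws neutrophils through the receptor CXCR2, and it is a well-known target of the transcription factor NF-kB whose messenger is short-lived. Pf4 encodes platelet factor 4, which platelets store in their alpha granules and which is commonly used as a marker of megakaryocytes. Immediate early genes such as Fos, Jun and Egr1 are switched on within minutes of a stimulus without new protein synthesis, and they are also known to respond to the dissociation of tissue into single cells.

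Both genes lie on the plus strand of chromosome 5 in a cluster of 7 chemokine genes that spans 146.6 kb of build GRCm38. The order is Cxcl5, Ppbp, Pf4, Cxcl3, Cxcl15, Cxcl1 and Cxcl2. Pf4 lies at positions 90772435 to 90773383 and Cxcl1 at 90891241 to 90893115, with starts 118.8 kb apart and Cxcl3 and Cxcl15 between them. Neither gene overlaps another annotated gene. No stretch of 31 bases in their annotated transcripts (923 in Cxcl1 and 670 in Pf4) was found in the transcripts of another gene.

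The promoters of the pair are shown because both genes belong to 1 cluster and their windows shared none of the motifs searched. The 250 bases before each start are from RefSeq, build GRCm38.p6, plus strand, with capitals for the motifs found. For Cxcl1 this window ends at 90891244, just past the annotated start of 90891241 given above. Distances of motifs are counted from the start used for the window.
Cxcl1, chr5:90890995-90891244: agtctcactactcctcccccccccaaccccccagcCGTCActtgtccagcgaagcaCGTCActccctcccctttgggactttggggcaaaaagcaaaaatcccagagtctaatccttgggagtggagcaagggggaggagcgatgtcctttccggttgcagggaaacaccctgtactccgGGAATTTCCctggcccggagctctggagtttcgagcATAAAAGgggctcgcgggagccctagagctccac
Pf4, chr5:90772185-90772434: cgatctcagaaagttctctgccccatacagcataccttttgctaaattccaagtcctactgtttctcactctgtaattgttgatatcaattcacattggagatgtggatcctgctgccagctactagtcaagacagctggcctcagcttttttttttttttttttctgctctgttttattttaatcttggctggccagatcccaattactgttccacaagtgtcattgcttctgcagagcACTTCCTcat

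The Cxcl1 window held the NF-kB core GGAATTTCC, which lay 70 bases before the start and is found on either strand in 0.286% of the 32851 promoters of the same length. It also held a TATA-like box, ATAAAAG on the gene strand (3.01% of promoters), and 2 matches to TGACG, the core of the cAMP response element (either strand, 17.8%). The Pf4 window held none of these and had 1 match to the ETS motif AGGAAGT (either strand, 7.69%), written in capitals on the opposite strand and 10 bases before the start. Neither window held the AP-1 motif TGANTCA (6.75%) or the GATA motif AGATAA (9.99%), both searched on either strand. No 2 of these motifs overlapped in either window. Of the 6 cluster genes with a promoter entry, Cxcl1, Cxcl2 and Cxcl3 held the NF-kB core, and the 15 bases on each side are shown to compare them.
Cxcl1, chr5:90891160-90891198: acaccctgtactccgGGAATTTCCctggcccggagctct
Cxcl2, chr5:90903788-90903826: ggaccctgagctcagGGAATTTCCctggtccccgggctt
Cxcl3, chr5:90786014-90786052: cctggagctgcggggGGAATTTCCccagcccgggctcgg

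The messengers also differed in AU-rich pentamers, which in mammalian messengers recruit decay factors such as the protein of Zfp36. The annotated 3′ untranslated region of Cxcl1 holds 7 copies of ATTTA in 592 bases, and 0.402% of the 2490 genes of like length hold as many or more. That of Pf4 holds 1 in 123 bases, and 17.2% of the 1293 genes of like length hold 1 or more. The densest stretch of Cxcl1, bases 85 to 114 of that region, is shown with the pentamers in capitals.
Cxcl1 site: cctATTTATTTAtgtATTTATTTAttccac

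Cxcl1 was detected in most homeostatic HEC and in few cells of any other group. It reached an FPKM of 1 in 16 of 64 inflamed HEC (25%, exact Clopper-Pearson 95% interval 15% to 37.4%) and 9 of 44 dedifferentiated HEC (20.5%, 9.80% to 35.3%), against 53 of 79 homeostatic HEC (67.1%, 55.6% to 77.3%) and 6 of 32 BEC (18.8%, 7.21% to 36.4%). These intervals cover counting error over cells only. The lowest value was 0 in every group. The median was 0 FPKM in inflamed HEC, dedifferentiated HEC and BEC, against 7.51 FPKM in homeostatic HEC. The highest was 1121 FPKM in inflamed HEC, 464.4 in dedifferentiated HEC, 4145 in homeostatic HEC and 301.3 in BEC.

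The ranges of all 4 groups therefore overlapped from 0 upward, and the groups differed in how many cells were high. Homeostatic HEC fell into cells with low and with high Cxcl1: 40 cells were below 10 FPKM, of which 14 reached 1 FPKM, 0 lay between 10 and 40 FPKM, and 39 were at 40 FPKM or more. These limits were chosen after the values had been seen. In the treated groups few cells were at 40 FPKM or more, 4 inflamed and 3 dedifferentiated HEC. Another 4 inflamed HEC lay between 10 and 40 FPKM, which held 0 dedifferentiated HEC. The 4 highest inflamed HEC had 1121, 1024, 498.5 and 218.0 FPKM and the next 19.4 FPKM, and the 3 highest of 44 dedifferentiated HEC had 464.4, 206.9 and 87.4 FPKM and the next 2.38 FPKM. The 3 highest cells carried 89.3% of the summed Cxcl1 FPKM in inflamed, 98.5% in dedifferentiated and 36.2% in homeostatic HEC, and in BEC 97.1%.

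Pf4 showed the same order of groups. It reached an FPKM of 1 in 24 of 64 inflamed HEC (37.5%, 25.7% to 50.5%) and 7 of 44 dedifferentiated HEC (15.9%, 6.64% to 30.1%), against 49 of 79 homeostatic HEC (62%, 50.4% to 72.7%) and 3 of 32 BEC (9.38%, 1.98% to 25%). The lowest value was 0 in every group and the median was 0 FPKM in all but homeostatic HEC, where it was 3.40 FPKM. The highest was 357.8 FPKM in inflamed HEC, 384.6 in dedifferentiated HEC, 1572 in homeostatic HEC and 209.6 in BEC.

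The 2 treated groups held different middle ranges of Pf4. Of the inflamed HEC, 8 lay between 10 and 40 FPKM of Pf4 and 9 at or above 40 FPKM, so that a middle range was filled that held 1 of the 79 homeostatic HEC, against 35 of them at or above 40 FPKM. Of the dedifferentiated HEC, 2 lay in the middle range and 2 above it. The 3 highest cells carried 52.5% of the summed Pf4 FPKM in inflamed, 95.7% in dedifferentiated and 30.5% in homeostatic HEC.

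**Figure D1:**
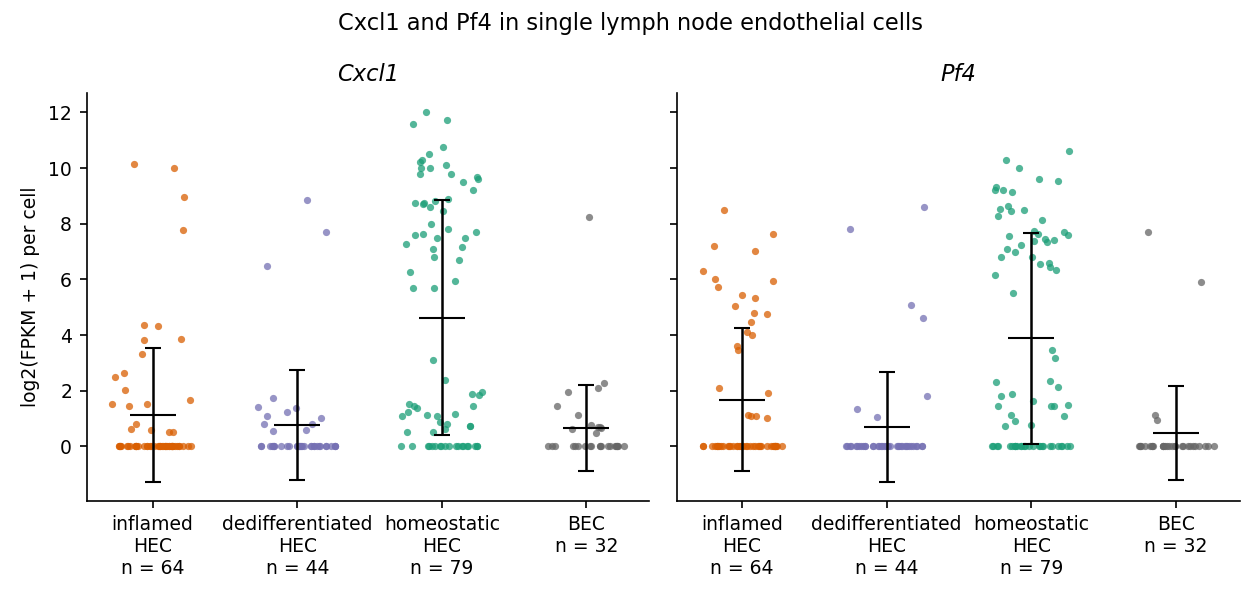
Level of Cxcl1 (left) and Pf4 (right) as log2(FPKM + 1) on the vertical axis, with 1 point per cell and with bars for the mean and SD over cells, in 64 inflamed HEC, 44 dedifferentiated HEC, 79 homeostatic HEC and 32 BEC. Homeostatic HEC form a low and a high cloud for both genes, while most cells of the other groups sit at or near 0 with a few high cells.

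On the log2(FPKM + 1) scale Cxcl1 averaged 1.14 ± 2.41 in inflamed HEC and 0.77 ± 1.97 in dedifferentiated HEC, against 4.63 ± 4.22 in homeostatic HEC and 0.66 ± 1.54 in BEC (mean ± SD over cells). The difference of these means was -3.49 for inflamed minus homeostatic HEC and -3.86 for dedifferentiated minus homeostatic HEC, and 3.97 for homeostatic HEC minus BEC. Inflamed HEC lay 0.48 and dedifferentiated HEC 0.11 from BEC, both less than the SD of any of the groups. Among all genes compared, Cxcl1 ranked 5 from the lowest of 9525 for inflamed minus homeostatic HEC and 3 from the lowest of 9008 for dedifferentiated minus homeostatic HEC.

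Pf4 averaged 1.68 ± 2.56 in inflamed HEC and 0.69 ± 1.97 in dedifferentiated HEC, against 3.89 ± 3.80 in homeostatic HEC and 0.49 ± 1.69 in BEC, on the same scale. The difference was -2.20 for inflamed minus homeostatic HEC and -3.20 for dedifferentiated minus homeostatic HEC. Homeostatic HEC minus BEC gave 3.40. For both genes, each of these differences was smaller than the SD of the homeostatic cells. Pf4 ranked 36 from the lowest of 9525 and 7 from the lowest of 9008 genes in the 2 treated comparisons, which share the homeostatic cells. Inflamed minus BEC gave 1.19 and dedifferentiated minus BEC 0.20, and the first of these turned to -0.093 when inflamed and BEC cells were matched on the number of genes detected.

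A difference of 1 or more served as the limit for all genes detected at 1 FPKM in over 10% of the cells of either group. For inflamed minus homeostatic HEC, 2.6% of genes were lower and 5.48% higher by this limit, and for dedifferentiated minus homeostatic HEC 9.52% were lower and 0.833% higher. For homeostatic HEC minus BEC, 17% were higher and 4.4% lower. For inflamed and for dedifferentiated HEC minus BEC, 21.8% and 11.3% were higher. Both members passed the limit in each comparison with homeostatic HEC, which the choice of members used, so nothing is read from that count.

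Of the other genes of the cluster, Cxcl2 and Cxcl5 were detected in some cells and Ppbp, Cxcl3 and Cxcl15 in none at 1 FPKM. Ppbp, the platelet basic protein gene that lies 2.37 kb before Pf4, was listed at 0 in all 219 cells. Cxcl3 and Cxcl15, which lie between Pf4 and Cxcl1, stayed below an FPKM of 1 in every cell, with a highest value of 0.70. Cxcl2, a neutrophil chemokine 10.8 kb after Cxcl1, reached an FPKM of 1 in 5 inflamed, 0 dedifferentiated and 8 homeostatic HEC and in 0 BEC, with highest values of 122.7, 0, 151.0 and 0.51 FPKM. Cxcl5 reached it in 10, 1, 8 and 3 cells and stayed at or below 8.36 FPKM.

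Of the receptors of these ligands, Cxcr2 and Ackr1 were detected. Cxcr1 and Cxcr3 were listed at 0 in all cells. Cxcr2, the receptor of Cxcl1, was detected at 1 FPKM in all 64 inflamed, 42 of 44 dedifferentiated and 77 of 79 homeostatic HEC and in all 32 BEC, at medians of 12.7, 6.10, 11.9 and 15.4 FPKM. Ackr1, an atypical receptor that binds many chemokines on venular endothelium, had medians of 1358 FPKM in inflamed, 1440 in dedifferentiated and 1002 in homeostatic HEC, against 2.52 in BEC. Across homeostatic HEC, Ackr1 had a rho of 0.020 with Cxcl1 and -0.10 with Pf4.

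Cxcl1 and Pf4 did not go together over the cells of a group. In homeostatic HEC, at a limit of 10 FPKM, 19 cells held both, 20 Cxcl1 alone, 17 Pf4 alone and 23 neither, and 17.8 cells would hold both if the genes were unrelated. Over the 79 cells Spearman's rho between them was 0.077 and Pearson's r on the log2 scale 0.061 (0.11 without the 2 cells farthest from the median). Over the 35 cells in which both reached an FPKM of 1, rho was -0.21. In inflamed HEC 1 cell held both at 10 FPKM, 7 Cxcl1 alone and 16 Pf4 alone, with a rho of 0.10 over 64 cells. In dedifferentiated HEC 0 cells held both, and rho was 0.036 over 44 cells. All correlations here are descriptions over cells that share a harvest and carry different depths. Approximated depth had a rho of 0.33 with Cxcl1 and 0.19 with Pf4 in homeostatic HEC, and the number of genes detected 0.067 and 0.20. Their part in the results was checked where stated.

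Over homeostatic HEC, the gene most correlated with Cxcl1 was Nfkbia. Correlations were read for the 6482 genes detected (at 1 FPKM) in 20% of these cells. Of these genes, 1.57% had a rho of 0.3 or more with Cxcl1 and the median rho was 0.015. Of the 102 genes at this limit, 13 were on the immediate early list and 2 on the NF-kB list. Nfkbia encodes the inhibitor of NF-kB that NF-kB itself induces, and had a rho of 0.63 and an r of 0.56 (also 0.56 without the 2 farthest cells). Next were Ppp1r15a, a phosphatase subunit of the stress response (rho 0.58), the early response gene Ier3 (0.57), Ifrd1 (0.56), Map3k8, a kinase that activates the ERK pathway (0.56), the Notch target Hes1 (0.49), the transcription factor gene Bhlhe40 (0.46) and the GTPase gene Gem (0.46). The lowest were Akap2 (-0.40), Phxr4 (-0.39), Clk4 (-0.38) and Dgcr2 (-0.38).

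Since many cells were below 1 FPKM of Cxcl1, the correlations were also read over the cells that held both genes. Over the 53 cells in which Cxcl1 and Nfkbia both reached an FPKM of 1, rho was 0.44. For Ier3 it was 0.54 over 52 cells and for Gem 0.49 over 44 cells, but for Hes1 0.056 over 34 cells. Given approximated depth, the rank-partial rho of Cxcl1 with Nfkbia was 0.63. Without that adjustment, rho was 0.74 in odd-numbered and 0.53 in even-numbered cells.

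Of the 32 immediate early genes listed, 20 reached the detection limit in homeostatic HEC and 13 of these had a rho of 0.3 or more with Cxcl1, against 1.57% of all genes. Their median rho was 0.34, against 0.015 over all genes. After Ier3 they were led by the phosphatase gene Dusp1 (0.43), the cytokine signalling suppressor Socs3 (0.42), Junb (0.42), Fos (0.40), Atf3 (0.40), Csrnp1 (0.40), Zfp36 (0.39), Jun (0.37), Jund (0.37), Fosb (0.32), Ier2 (0.32) and Egr1 (0.31). Klf6 (0.089), Ier5 (0.019), Klf4 (-0.013) and Fosl2 (-0.036) did not follow it. Given approximated depth, 12 of 20 reached the limit and the median was 0.36. The count differed between the parts of the sample: 14 of 20 in the 40 odd-numbered cells and 5 of 20 in the 39 even-numbered cells, where 5.23% and 4.04% of all genes reached it. In both, 18 of 20 had a positive rho.

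The NF-kB list followed Cxcl1 less as a group. Of its 17 detected members, 2 had a rho of 0.3 or more, Nfkbia and Nfkbiz (0.36), and the median was 0.21. Of all genes, 1.57% reached this limit, with a median of 0.015. The adhesion gene Icam1 (0.30, just under the limit), Rel (0.28), Tnfaip3 (0.27) and Tnip1 (0.27) were next. Nfkb2 (-0.020), Relb (-0.0081) and Birc2 (-0.11), which belong to the branch of the pathway engaged by the lymphotoxin receptor, were not correlated with it. Heat shock genes had a median rho of 0.13, with 1 of 8 at the limit. Of the other chemokines, Cxcl10 had a rho of 0.37, Cxcl9 of 0.10 and Ccl21a of 0.071. Of the 7 detected high endothelial markers, Glycam1 (0.32), Ubd (0.31) and Gcnt1 (0.31) reached the limit, and the 8 blood endothelial markers all had negative values (median -0.12).

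Over the same cells 0 of 20 immediate early genes had a rho of 0.3 or more with Pf4 and 1, Ier5, had -0.3 or less. With 2.07% of all 6482 genes at 0.3 or more, a count of 0 of 20 is near the share of all genes. Their median was -0.037, against 0.049 over all genes. Fos had a rho of -0.00066 with it (r 0.033), Nfkbia of -0.049 and Ier5 of -0.30. The count stayed at 0 of 20 in odd-numbered and in even-numbered cells and given approximated depth. Of the 17 NF-kB genes 0 reached the limit, with a median of 0.082.

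The gene closest to Pf4 was Pglyrp1, a peptidoglycan recognition protein gene (rho 0.58, r 0.49, and r 0.46 without the 2 farthest cells). Next were the tetraspanin gene Tspan3 (0.51), Serpinb9, an inhibitor of granzyme B (0.48), and the carboxylesterase gene Ces2g (0.45). They were followed by Glycam1, the sialomucin that carries L-selectin ligands on HEC (0.44), Exosc5 (0.44), Cmtm6 (0.43) and Chst4, a sulfotransferase of those ligands (0.42). Of these genes, Ces2g (0.34) and Glycam1 (0.32) also had a rho of 0.3 or more with Cxcl1. Exosc5 turned to -0.074 over the 17 cells in which it and Pf4 both reached an FPKM of 1. Over such cells Pglyrp1 kept a rho of 0.62 (49 cells) and Serpinb9 0.56 (49 cells), while Glycam1 had 0.25 (49 cells) and Chst4 0.046 (48 cells). The lowest were Cd300a (-0.43), Trub1 (-0.42), Mbd4 (-0.41) and Slc7a14 (-0.40).

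Of the 7 high endothelial markers detected, 3 had a rho of 0.3 or more with Pf4: Glycam1, Chst4 and Ubd (0.35). Of all genes, 2.07% did. Gcnt1 (0.099), Fut7 (0.033), Enpp2 (-0.081) and Ackr1 (-0.10) did not, and the list median was 0.099, against 0.049 over all genes. The summed FPKM of a cell had a rho of 0.43 with Pf4 and 0.16 with Cxcl1. Given Glycam1, the rank-partial rho of Pf4 was 0.50 with Pglyrp1 and 0.29 with Chst4.

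**Figure D2:**
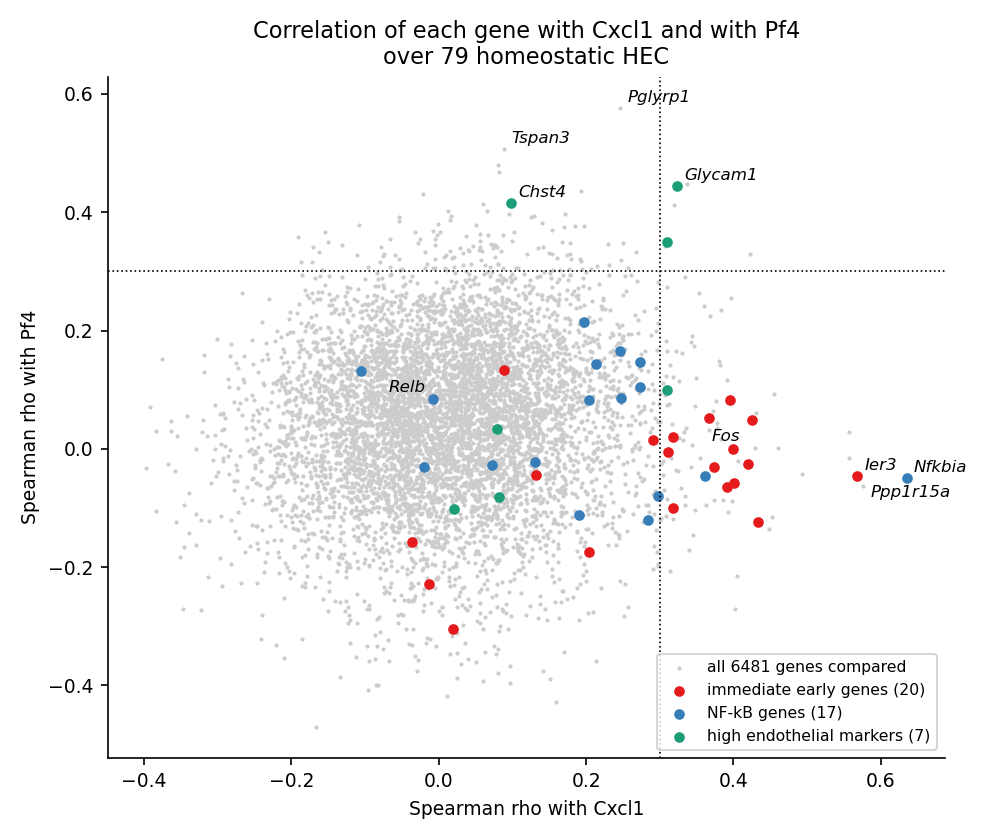
Spearman's rho of each gene with Cxcl1 (horizontal axis) and with Pf4 (vertical axis) over 79 homeostatic HEC, 1 point per gene, with dotted lines at 0.3. Immediate early genes in red extend to the right at a rho with Pf4 near 0, while Pglyrp1, Tspan3, Chst4 and Glycam1 lie at the top. Glycam1, Ubd and Ces2g are among the genes that pass both lines.

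**Figure D3:**
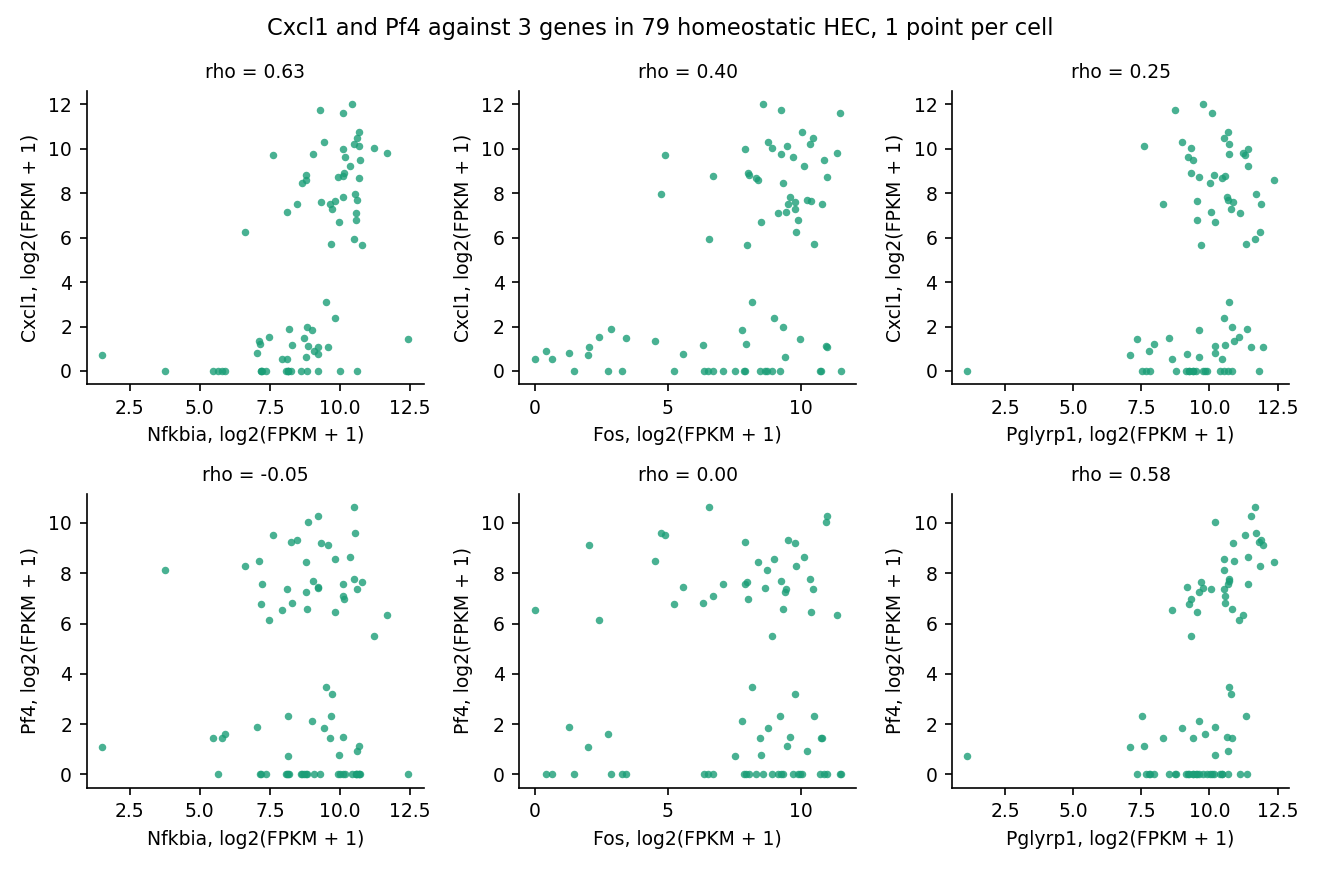
Cxcl1 (top) and Pf4 (bottom) against Nfkbia, Fos and Pglyrp1, on axes of log2(FPKM + 1) with 1 point per homeostatic HEC. Cxcl1 is high mostly in cells high in Nfkbia and Fos (rho 0.63 and 0.40), and Pf4 in cells high in Pglyrp1 (rho 0.58).

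As a list, the early genes had a lower median rho with Cxcl1 in the treated groups than in homeostatic HEC. Over 64 inflamed HEC, 5 of 19 detected immediate early genes had a rho of 0.3 or more with Cxcl1, where 1.49% of all genes did. Ier3 (0.42), Dusp1 (0.36) and Fos (0.35) were among them, and Nfkbia had a rho of 0.23. The list median was 0.17, against 0.026 over all genes. Over 44 dedifferentiated HEC, 0 of 19 reached the limit, which is near the share of all genes, 3.06%. The list median there was 0.11, against 0.018 over all genes. Fewer cells held Cxcl1 there, which limits any rank correlation, and the differences between groups were not tested. With Pf4, 0 of 19 early genes reached the limit over inflamed HEC, which is near the share of all genes, 2.74%. Their median was 0.077, against 0.063 over all genes. None of the 8 genes closest to Pf4 in homeostatic HEC reached a rho of 0.3 in inflamed HEC. Ces2g had a rho of 0.19, Glycam1 of 0.18, Tspan3 of 0.14 and Pglyrp1 of 0.064. These 8 genes, and Nfkbia for Cxcl1, were picked for the highest rho in homeostatic HEC. Such a choice alone makes lower values likely in other groups, so nothing is read from their drop. Pf4 in inflamed HEC had a rho of 0.42 with the number of genes detected. In dedifferentiated HEC and BEC Pf4, and in BEC Cxcl1, were detected in under 20% of cells and no such values were computed.

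Some of the early genes also differed between the groups. The immediate early list had 10 of 28 measured members lower and 1 higher by 1 or more for inflamed minus homeostatic HEC. Of all genes, 2.6% were lower and 5.48% higher. The list median was -0.64, against 0.10 over all genes. For dedifferentiated minus homeostatic HEC the list had 8 of 28 lower and 0 higher, against 9.52% and 0.833% of all genes. Its median was -0.58, against -0.30. For homeostatic HEC minus BEC it had 12 of 28 higher and 2 lower, against 17% and 4.4% of all genes. Its median was 0.84, against 0.28. The counts of 1 higher, 0 higher and 2 lower are near the shares of all genes. Fos differed by -4.33 for inflamed minus homeostatic HEC, the lowest of all 9525 genes, and by -2.51 for dedifferentiated minus homeostatic HEC. Egr1 differed by -4.07 and -3.36, Ppp1r15a by -3.70 and -2.34, Zfp36 by -3.67 and -1.19, and Nfkbia by -1.21 and -0.77 in these comparisons. Jun (-2.38) and Dusp1 (-2.23) were lower in inflamed than in homeostatic HEC, with 0.48 and 0.34 for dedifferentiated minus homeostatic HEC. Ier3 differed by less than 1 in both, at -0.85 and -0.60, and Fosl2 was the member that was higher in inflamed than in homeostatic HEC, by 1.56.

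The summed FPKM of the 32 early genes ran from 50.7 to 8022 with a median of 593.9 in inflamed HEC, from 32.2 to 9881 with a median of 1359 in dedifferentiated HEC, from 63.2 to 10736 with a median of 2080 in homeostatic HEC and from 81.6 to 11378 with a median of 1041 in BEC. The groups overlapped over nearly the whole range, with the homeostatic median highest. Of the NF-kB genes, 3 of 19 were lower and 1 higher for inflamed minus homeostatic HEC, against 2.6% and 5.48% of all genes. For dedifferentiated minus homeostatic HEC, 7 of 19 were lower and 0 higher, against 9.52% and 0.833% of all genes. For homeostatic HEC minus BEC, 11 of 18 were higher and 0 lower, against 17% and 4.4% of all genes. The list medians were -0.32, -0.78 and 1.8, against 0.10, -0.30 and 0.28 over all genes. The 1 of 19 higher is near the share of all genes that were higher, 5.48%, and the counts of 0 are near their shares.

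Cells with high early genes were then counted in every group, with limits chosen after the values had been seen. Among cells with Fos at 100 FPKM or more, Cxcl1 reached 10 FPKM in 5 of 17 inflamed HEC (29.4%, 10.3% to 56%) and 2 of 17 dedifferentiated HEC (11.8%, 1.46% to 36.4%), against 36 of 58 homeostatic HEC (62.1%, 48.4% to 74.5%) and 0 of 9 BEC (0% to 33.6%). Among cells with Fos below 100 FPKM it did so in 3 of 47 inflamed HEC (6.38%, 1.34% to 17.5%) and 1 of 27 dedifferentiated HEC (3.70%, 0.094% to 19%), against 3 of 21 homeostatic HEC (14.3%, 3.05% to 36.3%) and 1 of 23 BEC. In each HEC group the share was higher among cells with high Fos, with intervals that overlapped in the treated groups. Among cells with high Fos the treated shares lay below the homeostatic share. The interval of the inflamed cells (10.3% to 56%) overlapped the interval of the homeostatic cells (48.4% to 74.5%).

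Cells were also counted by Nfkbia. Among cells at 100 FPKM or more of Nfkbia, Cxcl1 reached 10 FPKM in 8 of 50 inflamed HEC (16%, 7.17% to 29.1%) and 3 of 35 dedifferentiated HEC (8.57%, 1.8% to 23.1%), against 38 of 72 homeostatic HEC (52.8%, 40.7% to 64.7%) and 1 of 20 BEC (5%, 0.127% to 24.9%). Among cells below 100 FPKM of Nfkbia it did so in 0 of 14 inflamed HEC (0% to 23.2%) and 0 of 9 dedifferentiated HEC (0% to 33.6%), against 1 of 7 homeostatic HEC (14.3%, 0.361% to 57.9%) and 0 of 12 BEC. The few homeostatic HEC below the limit had an interval that overlapped that of the cells above it. With Ier3 at 100 FPKM or more the counts were 6 of 29 inflamed and 2 of 21 dedifferentiated HEC, against 31 of 46 homeostatic HEC and 0 of 4 BEC. The intervals cover counting error over cells only, and mouse, chip and day cannot be told apart from treatment in any of them.

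For Pf4, the count by Fos showed no such split in homeostatic HEC, where it reached 10 FPKM in 26 of 58 cells with Fos at 100 FPKM or more (44.8%) and 10 of 21 cells below (47.6%). In inflamed HEC it did so in 7 of 17 cells with high Fos (41.2%, 18.4% to 67.1%). Below that limit it did so in 10 of 47 (21.3%, 10.7% to 35.7%), and the intervals overlapped. In dedifferentiated HEC the counts were 0 of 17 and 4 of 27, and in BEC 0 of 9 and 2 of 23. The count by Glycam1 showed a split in homeostatic HEC. Among cells with Glycam1 at 10000 FPKM or more, Pf4 reached 10 FPKM in 10 of 27 inflamed HEC (37%, 19.4% to 57.6%) and 4 of 18 dedifferentiated HEC (22.2%, 6.41% to 47.6%), against 35 of 64 homeostatic HEC (54.7%, 41.7% to 67.2%), while no BEC was this high. Among cells below this limit it did so in 7 of 37 inflamed HEC (18.9%, 7.96% to 35.2%) and 0 of 26 dedifferentiated HEC (0% to 13.2%), against 1 of 15 homeostatic HEC (6.67%, 0.169% to 31.9%) and 2 of 32 BEC. Glycam1 itself was lower in the treated groups, with medians of 6350 FPKM in inflamed and 7027 FPKM in dedifferentiated HEC, against 59091 FPKM in homeostatic HEC and 66.2 FPKM in BEC.

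**Figure D4:**
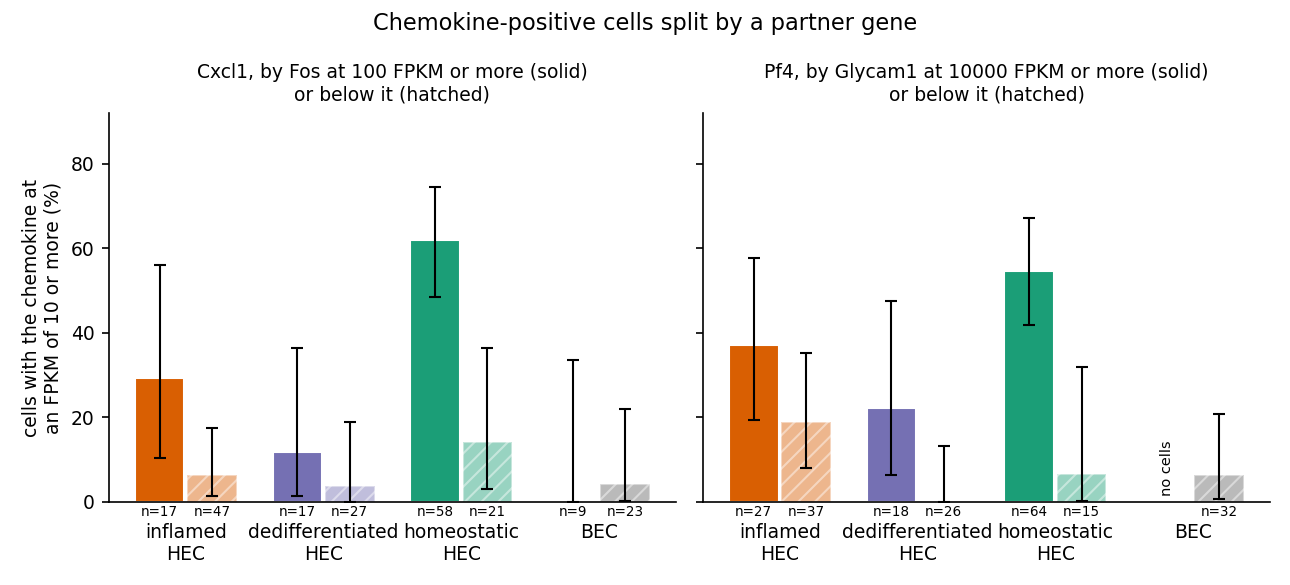
Percent of cells with Cxcl1 (left) or Pf4 (right) at an FPKM of 10 or more on the vertical axis, split by Fos at 100 FPKM (left) or Glycam1 at 10000 FPKM (right), with exact 95% intervals over cells and the number of cells under each bar. Cxcl1 reached the limit in 62.1% of homeostatic HEC with high Fos, against 29.4% of inflamed and 11.8% of dedifferentiated HEC with high Fos.

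Of 20 platelet and megakaryocyte genes other than Pf4, 9 were listed at 0 in all 219 cells: Ppbp, the glycoprotein genes Gp1bb, Gp5, Gp6 and Gp9, the tubulin gene Tubb1, Treml1, the ADP receptor gene P2ry12 and Gfi1b. None of the 20 reached an FPKM of 1 in 20% of homeostatic HEC. The integrin genes Itga2b and Itgb3, of which Itgb3 is also expressed by endothelium, were each detected at 1 FPKM in 5 of 79 homeostatic HEC, with highest values of 16.7 and 18.8 FPKM, and Plek in 5, with a highest value of 75.6 FPKM.

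Cells with Pf4 did not hold these genes more often than cells without it beyond counting error. At a limit of 10 FPKM for every gene, 4 of 36 homeostatic HEC with Pf4 held at least 1 of the 20 platelet genes (11.1%, 3.11% to 26.1%), against 3 of 43 without Pf4 (6.98%, 1.46% to 19.1%). At a limit of 1 FPKM the counts were 9 of 49 with Pf4 (18.4%, 8.76% to 32%) and 8 of 30 without (26.7%, 12.3% to 45.9%). In inflamed HEC at 10 FPKM, 3 of 17 cells with Pf4 and 9 of 47 without held at least 1. At 1 FPKM, 13 of 24 inflamed HEC with Pf4 (54.2%, 32.8% to 74.4%) and 16 of 40 without (40%, 24.9% to 56.7%) did so, and the intervals overlapped. The summed FPKM of the 20 genes ran from 0 to 425.5 with a median of 0.73 in inflamed HEC, from 0 to 48.8 with a median of 0.11 in dedifferentiated HEC, from 0 to 115.0 with a median of 0.34 in homeostatic HEC and from 0 to 427.1 with a median of 0.82 in BEC. Each highest sum is that of a single cell, and a platelet source of Pf4 was not tested. The BEC maximum is the value of Alox12, which reached an FPKM of 1 in 12 of 32 BEC and in 0 of the HEC.

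Macrophages can also express Pf4. Of their 15 markers in the table, Emr1, C1qa, C1qb, C1qc, Lyz2 and Siglec1 were listed at 0 in all cells. In homeostatic HEC at 10 FPKM, 7 of 36 cells with Pf4 held at least 1 of the 15 (19.4%, 8.19% to 36%), against 5 of 43 without (11.6%, 3.89% to 25.1%), and 0 of 36 and 1 of 43 held 2 or more. The summed FPKM of these markers ran to 479.8 in inflamed, 766.2 in dedifferentiated and 2875 in homeostatic HEC and to 298.9 in BEC, with medians of at most 0.82. Of the 8 homeostatic HEC with 3 or more markers of any other cell type, 5 had Cxcl1 and 3 had Pf4 at 10 FPKM. Without these cells, Cxcl1 and Nfkbia had a rho of 0.67 and Pf4 and Pglyrp1 of 0.56.

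Of the genes that platelets share with endothelium, 6 of 8 were detected in 20% of homeostatic HEC, and their rho with Pf4 ran from -0.11 for Vwf to 0.060 for Gng11. Selp, which encodes the P-selectin of platelet granules and of endothelial Weibel-Palade bodies, had a rho of 0.029 with Pf4 and differed by 3.86 for inflamed minus homeostatic HEC, the opposite direction to Pf4. Thbs1 had a rho of 0.034 and differed by 2.12 in the same comparison.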

How the data were processed

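Single-cell libraries were made on the Fluidigm C1 system and with Nextera XT, per the labels' protocols. FPKM values were deposited by the authors for 24049 genes in 220 cells, and the submitters' processing notes name RSEM 1.2.18, CASAVA 1.8 and the build mm10. Zeros made up 76.0% of the values. The treatment of doublets, the sort gate and filters on cells are not given in the sources read, and no doublet caller was run. Reads were amplified and carry no molecular tags, so they do not stand for separate molecules.

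Members, gene lists (10, and 11 marker lists) and tests were chosen with earlier results of these data known. From the deposited FPKM, log2(FPKM + 1) was averaged over cells per group, for genes detected at 1 FPKM in over 10% of the cells of either group. A difference on this scale understates the change of low genes. With 1 sample a group, no p-value was computed. Inflamed cells 43 and 60 were averaged because r exceeded 0.9, a limit set after they were seen. Spearman's rho was computed over cells within a group, for genes detected at 1 FPKM in 20% of its cells. Depth was approximated from the steps of low FPKM values. Named genes were the members, their cluster, the 8 most and 4 least correlated genes in homeostatic HEC (without predicted, ribosomal, haemoglobin and small RNA genes) and list members. Of 211 list genes 2 were not in the table. The statistics were tested on simulated data. Promoters are from RefSeq (GRCm38.p6), gene positions and untranslated regions from the GENCODE annotation. Python 3.11.15, numpy 2.4.6, pandas 2.3.3 and scipy 1.17.1 were used.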

Additional observations from a re-analysis of the deposited data

How the results depend on the processing

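The differences of Cxcl1 and Pf4 between treated and homeostatic HEC, and between homeostatic HEC and BEC, kept their direction under all 10 alternatives run (pseudocounts of 0.1 and 10, arithmetic means, rescaling by median ratio or to equal sums, cells matched on gene number, odd-numbered or even-numbered cells, without cells carrying markers of another type, and all 220 cells). Cxcl1 ranged from -4.87 to -2.21 for inflamed minus homeostatic HEC, from -5.40 to -2.39 for dedifferentiated minus homeostatic HEC and from 2.51 to 5.34 for homeostatic HEC minus BEC. Pf4 ranged from -3.10 to -1.41, from -4.78 to -1.82 and from 1.91 to 5.10. Pf4 in inflamed HEC minus BEC turned from 1.19 to -0.093 in 32 pairs matched on gene number, and the cause was not tested. Counts of genes past a difference of 1 moved more, for example from 113 to 1498 genes higher in inflamed than in homeostatic HEC, with the pseudocount setting both ends, and from 19 to 1361 higher and 119 to 2197 lower in dedifferentiated than in homeostatic HEC.

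At a limit of 10 FPKM, Cxcl1 was found in 12.5% of inflamed, 6.82% of dedifferentiated and 49.4% of homeostatic HEC and 3.13% of BEC, and Pf4 in 45.6% of homeostatic HEC. At any FPKM above 0, Cxcl1 was found in 32.8% of inflamed, 29.5% of dedifferentiated and 75.9% of homeostatic HEC and 37.5% of BEC. At this limit the BEC share lay above those of the treated groups. The early genes at a rho of 0.3 or more with Cxcl1 numbered 5 in even-numbered cells, with a median rho of 0.23, against a median of 0.45 in odd-numbered cells. Of the values of rho of a member with the genes named as most or least correlated with it, 219 of 239 stayed on their side of 0.3, and Pf4 with Exosc5 turned to -0.074 over cells where both reach an FPKM of 1. The rho between Cxcl1 and Pf4, 0.077, ranged from -0.21 to 0.21. Rank-partial values given depth or Glycam1, and the list counts without cells carrying other markers or after median-ratio rescaling, were added after the data had been seen. No paired analysis was possible because the results come from no test and the numbers in the labels only name cells. At the approximated depth, Cxcl1 and Pf4 values near 1 FPKM rest on 1 or 2 fragments.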
